A study of Mus musculus with 38 samples.

Results

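Baseline expression of 2 kinds of mouse macrophage-lineage cell was compared without drug: BV2, an immortalised microglial line, and macrophages grown from bone marrow (BMDM). The comparison rests on 4 of the 38 libraries of the study, 2 of BV2 and 2 of BMDM. They were picked out by their labels (solvent (DMSO) treatment, 21% oxygen and the panobinostat experiment), with earlier results of these data known. Panobinostat is a histone deacetylase inhibitor that other libraries of that experiment received at 10 nM, and the DMSO libraries got an equal volume of its solvent during a 16 h incubation. BV2 grew in medium with 2% fetal bovine serum and BMDM in medium with 10%, so cell type and serum cannot be told apart. BMDM came from wild-type (WT) animals, whose number, age and pooling the labels do not give, and BV2 is a single line of transformed cells. All cells were fixed on ice in 3% glyoxal before RNA isolation, and poly(A) RNA was sequenced. The labels do not say that the 2 replicates of these groups came from separate cultures or animals, so p-values measure only the spread between these libraries, which may be technical.

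Microglia are the resident macrophages of the brain, seeded early in development, while bone marrow macrophages are grown from blood-forming precursors under the cytokine CSF1. Both use the receptor CSF1R and the transcription factor PU.1 (Spi1), and in the brain microglia carry a further set of genes such as P2ry12, Tmem119 and Sall1 that is known to fade in culture. BV2 was made by infecting microglia with a retrovirus that carries oncogenes, and it divides without added CSF1. In glioma both microglia and macrophages from marrow are found in the tumour.

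The 4 libraries held between 12848411 and 15869246 counts over genes, and 3 counts, taken as the floor of detection, corresponded to 0.189 to 0.233 CPM. Levels are in CPM, a gene's counts scaled to a common library size with the trimmed mean of M values, and are given for replicate 1 and then replicate 2. Differences are on the log2 scale with the standard error (SE) of the fit, and adjusted p is from edgeR's quasi-likelihood F test with Benjamini-Hochberg adjustment over 15955 genes. The fit holds all 12 libraries of the panobinostat experiment, whose 6 groups share the estimate of spread. Levels quoted from the first experiment are of untreated BV2 and BMDM grown alone at 21% oxygen, scaled among their own libraries. In bulk RNA, fewer cells of a type and less RNA per cell cannot be told apart, which touches the results on stromal and dividing cells first.

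The BMDM libraries with DMSO held transcripts of genes typical of stromal cells, the fibroblast-like cells of marrow that lay down collagen. Col1a1, a chain of type I collagen, was at 14666 and 13585 CPM in BMDM and at 10.1 and 6.83 CPM in BV2, and BMDM of the first experiment held 85.3 and 121 CPM. Fap, a fibroblast surface protease, was at 6.32 and 3.65 CPM in BMDM and had no count in BV2, with 0.172 and 0.201 CPM in BMDM of the first experiment. The stromal list thus separates not only BMDM from BV2 but also the BMDM libraries of one experiment from those of the other. Over its 40 genes the list took 5.78% and 6.32% of all counts in BMDM with DMSO, 0.124% and 0.129% in BMDM of the first experiment, and 0.018% and 0.0154% in BV2 with DMSO. All 39 tested members were higher in BMDM with DMSO than in BV2, as were 27.1% of all tested genes. Of the 40, 36 were at least 4-fold higher in BMDM with DMSO than in BMDM of the first experiment (0.5 CPM added to both). Of the 15 stromal genes taken as defining, 14 were tested and all 14 were higher in BMDM, while the other, Lum, had 0.0771 CPM in 1 BMDM library and no count elsewhere. DMSO and experiment cannot be told apart in these levels.

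**Figure D1:**
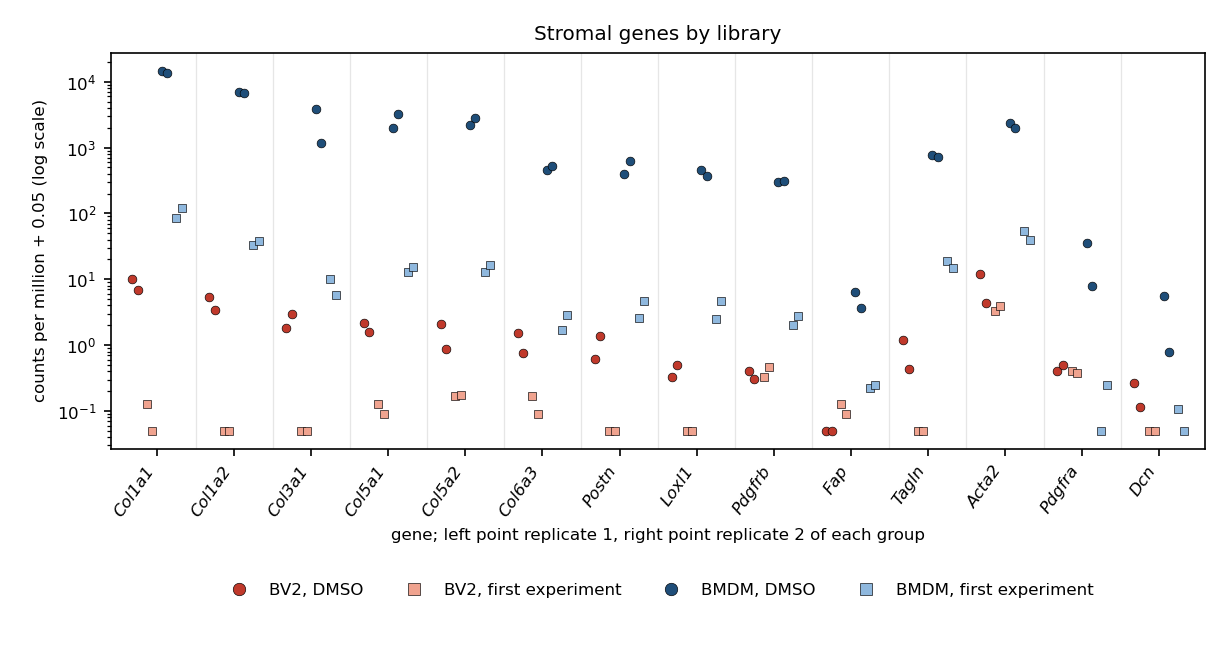
Levels of 14 defining stromal genes (CPM plus 0.05, log axis) in each library of BV2 and BMDM with DMSO and of the same cells in the first experiment, 1 point per library. Col1a1 lies at 14666 and 13585 CPM in BMDM with DMSO, at 85.3 and 121 CPM in BMDM of the first experiment, and at 10.1 CPM or less in BV2.

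Genes that stood apart in this way were followed separately. They were the stromal list together with every gene at least 4-fold higher in BMDM with DMSO than in BMDM of the first experiment, 1219 genes in all, of which 1214 were tested. They took 13% and 11.9% of the counts of BMDM with DMSO, 0.476% and 0.495% of BMDM of the first experiment, and 2.21% and 1.47% of BV2 with DMSO. Apart from the stromal list, they were picked by their excess in these same BMDM libraries. The gap between the BMDM shares was therefore largely fixed by that choice. Below the genes of this set are called experiment-high genes. The level in BMDM of the first experiment is given beside many of the genes described.

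The 2 BMDM libraries with DMSO also differed from each other. Among genes with a mean of at least 5 CPM, 2.81% were at least 4-fold apart between them (92 higher in replicate 1, 203 higher in replicate 2), against 0.286% between the 2 BV2 libraries and 0.0405% between the BMDM libraries of the first experiment. Replicate 1 held more transcripts of the enzyme Arg1, which breaks down arginine (1857 CPM in replicate 1 and 2.23 CPM in replicate 2), and of the inflammatory cytokine Il1b (420 and 3.78 CPM). Replicate 2 held those of dividing cells: the proliferation mark Mki67 was at 98.8 and 944 CPM, and the mitosis list summed to 726 and 3863 CPM. BV2 lay close to replicate 2 for the latter, with sums of 3497 and 4633 CPM, as did BMDM of the first experiment with 5319 and 4876 CPM. Of 358 listed or named genes that passed, 239 kept their call without each library in turn.

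**Figure D2:**
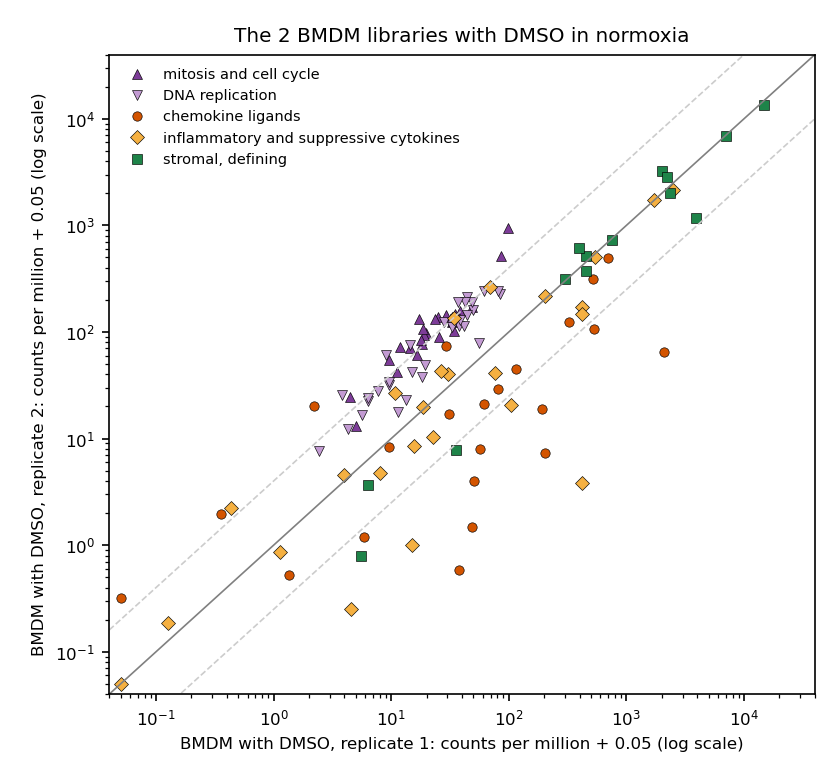
Tested genes of 5 lists in the 2 BMDM libraries with DMSO, replicate 1 on the x axis and replicate 2 on the y axis (CPM plus 0.05, log axes), 1 point per gene. The solid line marks equal levels and the dashed lines a 4-fold difference. All 26 mitosis genes and all 32 DNA replication genes lie above the solid line, whereas Il1b lies at 420 CPM in replicate 1 and 3.78 CPM in replicate 2.

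Across the transcriptome 7054 of 15955 tested genes passed an adjusted p of 0.05, 2733 of them higher in BV2 (17.1% of tested genes) and 4321 higher in BMDM (27.1%). With a difference of at least 4-fold required as well, 965 were higher in BV2 (6.05%) and 2742 higher in BMDM (17.2%). The count of genes higher in BV2 was 1460 without BMDM replicate 1, and otherwise between 1900 and 2171 with any 1 of the other 3 libraries left out. The median log2 difference (BV2 minus BMDM) over tested genes was -0.11, and scaling factors computed without the 100 most expressed genes moved it to 0.01, so differences of that size carry no direction. With that scaling 3274 genes were higher in BV2 and 3919 in BMDM, and among genes with a mean of at least 5 CPM 2516 were higher in BV2 and 2527 in BMDM.

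**Figure D3:**
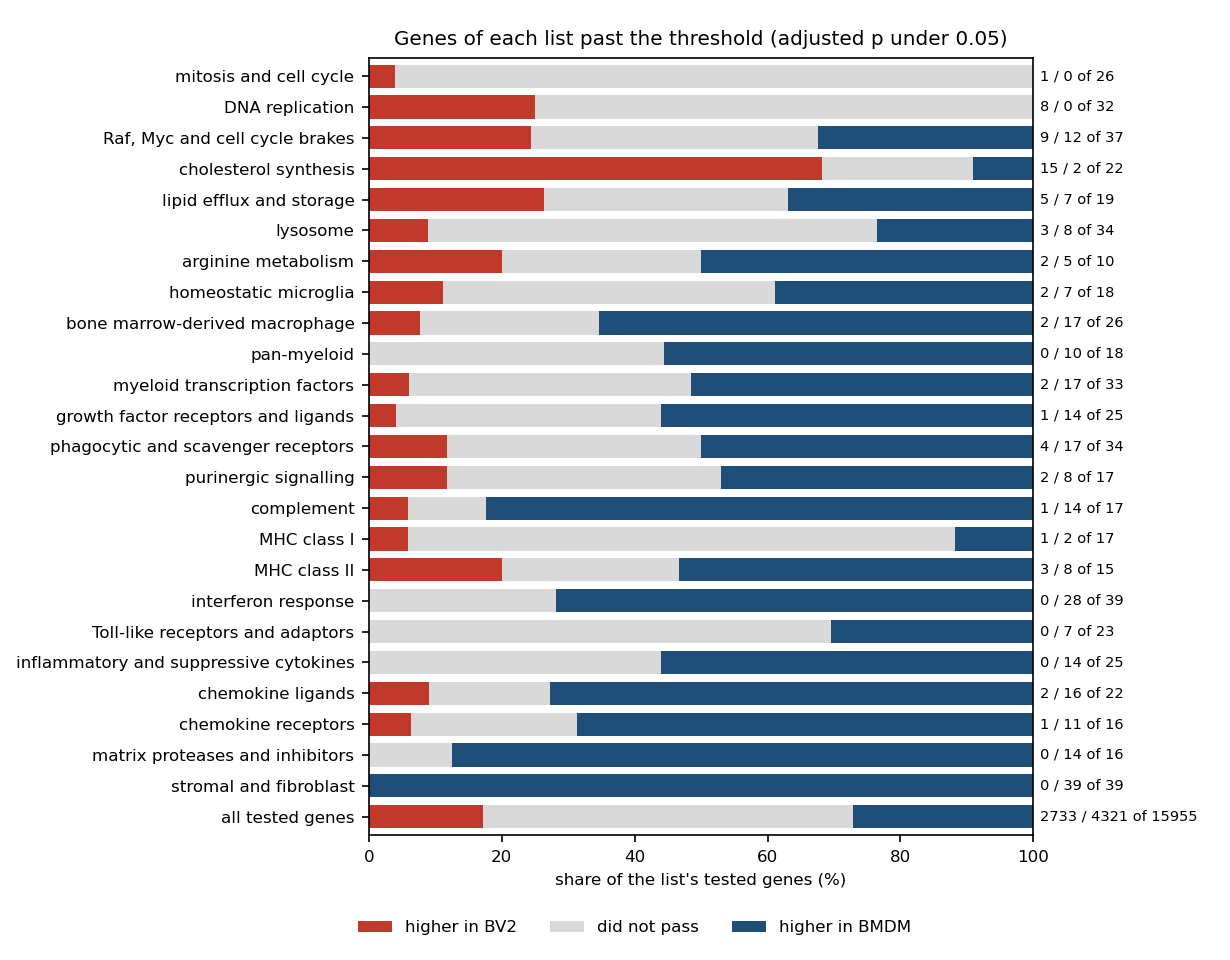
For each gene list, the share of tested members that were higher in BV2 (red), did not pass an adjusted p of 0.05 (grey) and were higher in BMDM (blue), with the counts (BV2 / BMDM of tested) at the right. Cholesterol synthesis has 15 of 22 members higher in BV2, and the last bar gives all 15955 tested genes.

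Genes used as marks of microglia were mostly low in the line. P2ry12, the purinergic receptor that guides microglial processes, was at 3.83 and 2.25 CPM in BV2 and at 3.85 and 5.74 CPM in BMDM (adjusted p = 0.599). Sall1, the transcription factor that holds microglial identity, had no count in BV2 and 0.0771 and 0.135 CPM in BMDM, and the lectin Siglech had no count in any of the 4 libraries. The lipid receptor Trem2 was at 259 and 145 CPM in BV2 and at 379 and 519 CPM in BMDM (adjusted p = 0.245). So neither P2ry12 nor Trem2 separated the line from the macrophages beyond the spread of the fit. Of 22 genes in the list, 18 were tested, 2 were higher in BV2 and 7 higher in BMDM, beside 17.1% and 27.1% of all tested genes. The median log2 difference was -1.14 against -0.11 over all tested genes.

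Several of the microglial marks were higher in the macrophages. Fcrls, an Fc receptor-like gene, was at 0.85 and 0.644 CPM in BV2 and at 216 and 100 CPM in BMDM, 210-fold higher in BMDM (log2 7.71 ± 1.40 SE, adjusted p = 0.0017). First-experiment BMDM held 364 and 138 CPM. Olfml3, a secreted glycoprotein, was at 9 and 9.53 CPM in BV2 and at 172 and 182 CPM in BMDM, 19-fold higher in BMDM (log2 4.25 ± 0.66 SE, adjusted p = 0.00067). First-experiment BMDM held 202 and 197 CPM. Pros1, a ligand of the engulfment receptors Mertk and Tyro3, was 10.9-fold higher in BMDM (5.17 and 4.9 CPM against 58.7 and 50.8 CPM, adjusted p = 0.000374). The groups did not overlap for any of these genes, and the first experiment gave like levels in BMDM. Tmem119, a membrane protein used as a microglial mark, was at 8.01 and 4.44 CPM in BV2 and at 43.5 and 49.6 CPM in BMDM (7.48-fold, adjusted p = 0.00114). First-experiment BMDM held 2.35 and 2.14 CPM, and Tmem119 is one of the experiment-high genes. With the first-experiment BMDM in the place of those with DMSO, Tmem119 was higher in BV2 (log2 1.42, adjusted p = 0.0314). Slco2b1, an organic anion transporter, had no count in BV2 and was at 3.39 and 3.85 CPM in BMDM (at least 35.9-fold), a call (adjusted p = 0.0152) lost without BV2 replicate 1 (adjusted p = 0.0669) or replicate 2 (adjusted p = 0.0757). Sparc, a matrix glycoprotein that both microglia and fibroblasts make, is in the stromal list too and was at 4.18 and 1.93 CPM in BV2 and at 2978 and 2594 CPM in BMDM, with 22.7 and 25.4 CPM in BMDM of the first experiment.

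The fractalkine receptor Cx3cr1 was at 0.567 and 1.61 CPM in BV2 and at 70.7 and 377 CPM in BMDM, 202-fold higher (log2 7.65 ± 2.36 SE, adjusted p = 0.0244). This call was lost without BMDM replicate 2 (log2 5.99, adjusted p = 0.069), without BV2 replicate 1 (log2 7.06, adjusted p = 0.136) and without BV2 replicate 2 (log2 8.57, adjusted p = 0.115). First-experiment BMDM held 599 and 417 CPM and BV2 of the first experiment 0.781 and 1.6 CPM. Both marks that were higher in BV2 are transcription factors. Bhlhe41, a repressor of the clock family, was at 155 and 149 CPM in BV2 and at 39.8 and 65.1 CPM in BMDM, 2.89-fold higher in BV2 (log2 1.53 ± 0.31 SE, adjusted p = 0.00301). Sall3, a relative of Sall1, was at 4.96 and 11.1 CPM in BV2 and rested on 3 counts in BMDM, a ratio of 75.6 with an exact 95% counting interval of 25.6 to 369 (adjusted p = 0.000889). Such intervals cover counting error only.

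**Figure D4:**
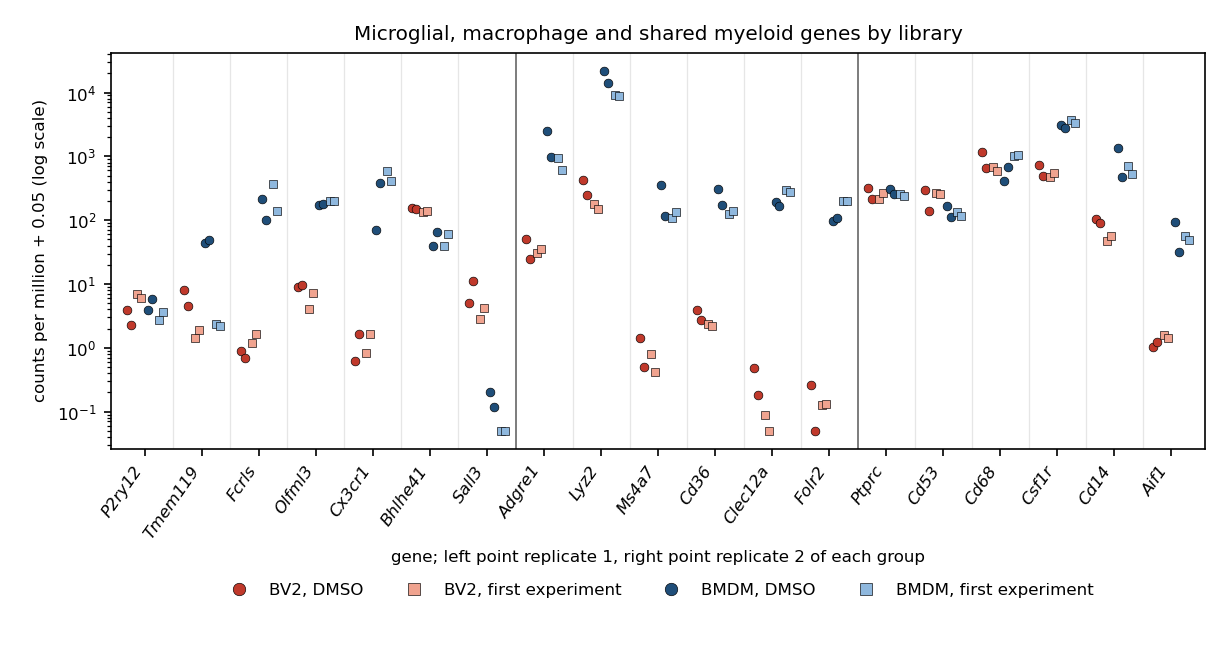
Levels (CPM plus 0.05, log axis) of 7 microglial marks, 6 macrophage marks and 6 shared myeloid genes, parted by the vertical lines, in each library of BV2 and BMDM with DMSO and of the same cells in the first experiment. Fcrls, Adgre1 and Clec12a lie apart between the cell types in all libraries shown, whereas P2ry12, Ptprc and Cd53 do not.

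Marks of bone marrow macrophages were higher in BMDM for 17 of 26 tested members and higher in BV2 for 2, beside 27.1% and 17.1% of all tested genes. Of the 28 listed marks 6 were experiment-high, and with the first-experiment BMDM in the comparison 15 were higher in BMDM. Adgre1, which encodes a surface antigen of macrophages, was at 50.7 and 24.3 CPM in BV2 and at 2495 and 967 CPM in BMDM, 46.2-fold higher in BMDM (log2 5.53 ± 0.64 SE, adjusted p = 0.000113). Lyz2, the macrophage lysozyme, was at 423 and 249 CPM in BV2 and at 21896 and 13940 CPM in BMDM (53.3-fold, log2 5.74 ± 1.11 SE, adjusted p = 0.00241). Clec12a, an inhibitory lectin receptor, was at 0.425 and 0.129 CPM in BV2 and at 195 and 168 CPM in BMDM (647-fold, log2 9.34 ± 0.59 SE, adjusted p = 4.89e-06). Each of these marks was high in both BMDM libraries and low in both BV2 libraries, and BMDM of the first experiment held 939 and 601, 9283 and 8744, and 299 and 272 CPM of Adgre1, Lyz2 and Clec12a. Folr2, a folate receptor of tissue macrophages, rested on 3 counts in BV2 and was at 95.6 and 108 CPM in BMDM, a ratio of 1010 with a counting interval of 345 to 4902. Ms4a7, a membrane protein of macrophages, was at 1.35 and 0.451 CPM in BV2 and at 352 and 117 CPM in BMDM (262-fold, adjusted p = 3.16e-05). The fatty acid receptor Cd36 was at 3.9 and 2.64 CPM against 310 and 175 CPM (74.2-fold, adjusted p = 5.05e-06). The matrix protein Fn1, in both the macrophage and the stromal list, was at 7.65 and 4.64 CPM in BV2, at 4835 and 9596 CPM in BMDM and at 34.6 and 43.1 CPM in BMDM of the first experiment. In the other direction, the fatty acid carrier Fabp4 was at 83.1 and 66.8 CPM in BV2 and at 12.6 and 5.68 CPM in BMDM, 8.23-fold higher in BV2 (log2 3.04 ± 0.39 SE, adjusted p = 0.000223). Mgl2, a galactose lectin of macrophages, was at 2.9 and 1.1 CPM in BV2 with 2 counts in BMDM, a call that was lost without BMDM replicate 1 (adjusted p = 0.0579), without BMDM replicate 2 (adjusted p = 0.0573) and without BV2 replicate 1 (adjusted p = 0.0552).

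Among genes shared by the whole mononuclear phagocyte lineage, several did not differ beyond the spread of the fit. The leukocyte phosphatase Ptprc, which encodes CD45, was at 318 and 211 CPM in BV2 and at 313 and 257 CPM in BMDM (log2 -0.11 ± 0.36 SE for BV2 minus BMDM, adjusted p = 0.835). The tetraspanin Cd53 was at 302 and 138 CPM in BV2 and at 165 and 113 CPM in BMDM (adjusted p = 0.351). The endosomal glycoprotein Cd68 was at 1160 and 650 CPM against 404 and 691 CPM (adjusted p = 0.202). The libraries of the 2 cell types overlapped for all 3 of these genes. Itgam, the integrin chain CD11b, was at 15.1 and 4.9 CPM in BV2 and at 1028 and 222 CPM in BMDM, 62.6-fold higher in BMDM (log2 5.97 ± 0.98 SE, adjusted p = 0.000934), although 65.2% of its 75-base transcript words also occur in other annotated genes, which makes its counts uncertain. Aif1, which encodes the calcium-binding protein IBA1 used to stain microglia, was at 0.992 and 1.16 CPM in BV2 and at 93.2 and 31.5 CPM in BMDM (57.4-fold, log2 5.84 ± 0.88 SE, adjusted p = 0.000592). The integrin chain Itgb2, partner of CD11b, was at 84.8 and 71.4 CPM in BV2 and at 1075 and 986 CPM in BMDM, and its call (adjusted p = 0.0405) was lost without any 1 of the 4 libraries (adjusted p = 0.069 to 0.183). Cd14, the co-receptor for bacterial lipopolysaccharide, was at 106 and 90.2 CPM in BV2 and at 1360 and 475 CPM in BMDM (9.35-fold, adjusted p = 0.00149). Of the 18 members, all tested, 10 were higher in BMDM and none in BV2, beside 27.1% and 17.1% of all tested genes. The count of 10 fell to between 3 and 6 when any 1 of the 4 libraries was left out.

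The promoters of the shared genes are shown for 1 member that differed between the cell types and 1 that did not, because both carry GAGGAA, the core of the PU.1 binding site. The 250 bases before the RefSeq start of transcription are printed 5′ to 3′ (GRCm38.p6), with GAGGAA or its reverse complement TTCCTC in capitals. Itgam lies on the plus strand at chr7:128062390-128062639 and Cd53 on the minus strand at chr3:106790150-106790399.
Itgam: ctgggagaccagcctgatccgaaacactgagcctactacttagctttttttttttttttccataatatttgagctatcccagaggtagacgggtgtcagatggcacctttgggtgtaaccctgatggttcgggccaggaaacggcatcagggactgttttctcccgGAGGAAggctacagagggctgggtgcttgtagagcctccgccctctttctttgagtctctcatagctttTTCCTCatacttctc
Cd53: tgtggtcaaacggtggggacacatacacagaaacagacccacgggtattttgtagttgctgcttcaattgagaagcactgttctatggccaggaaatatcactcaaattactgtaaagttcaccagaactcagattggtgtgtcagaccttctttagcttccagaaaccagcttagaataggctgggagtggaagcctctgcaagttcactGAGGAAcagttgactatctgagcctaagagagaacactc
Over both strands of windows that run a little past the start, 9 of 18 promoters, from 14 of the 18 genes, of the list (50%) held GAGGAA, against 28.3% of 32851 promoters. A match of letters is a description and not a bound site.

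Transcription factors of the lineage leaned toward BMDM, with 17 of 33 higher there and 2 higher in BV2, beside 27.1% and 17.1% of all tested genes. Spi1 was at 204 and 269 CPM in BV2 and at 611 and 429 CPM in BMDM, 2.2-fold higher in BMDM (log2 1.14 ± 0.30 SE, adjusted p = 0.012), a call that was lost without BMDM replicate 1 (adjusted p = 0.0864) and without BV2 replicate 1 (adjusted p = 0.0937). Irf8, its partner in microglia and macrophages, was at 93.1 and 131 CPM in BV2 and at 155 and 96.6 CPM in BMDM (adjusted p = 0.743). The central lineage factors were thus present in both cell types. Cebpa, which drives the monocyte and granulocyte programme, was at 0.921 and 0.387 CPM in BV2 and at 74.8 and 158 CPM in BMDM, 178-fold higher in BMDM (log2 7.47 ± 0.62 SE, adjusted p = 1.8e-05). Maf was at 15.5 and 13.8 CPM in BV2 and at 712 and 388 CPM in BMDM (37.4-fold, log2 5.23 ± 0.61 SE, adjusted p = 0.000119). Klf2 was at 3.4 and 1.55 CPM in BV2 and at 59.5 and 88.9 CPM in BMDM (30-fold, adjusted p = 3.5e-05). The lipid-sensing nuclear receptors Pparg (26.3-fold, adjusted p = 6.85e-05) and Nr1h3 (8.75-fold, adjusted p = 0.000216) were higher in BMDM as well. Higher in BV2 was Batf3, a factor of dendritic cells, at 8.22 and 15.5 CPM against 0.462 and 0.743 CPM (19.2-fold, log2 4.27 ± 0.68 SE, adjusted p = 0.000804). Runx3 was at 126 and 165 CPM against 45 and 34.8 CPM (3.64-fold, adjusted p = 0.000757).

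Among growth factor and cytokine receptors and ligands, 14 of 25 tested members were higher in BMDM, and fewer without BV2 replicate 2. Higher in BV2 was 1, beside 27.1% and 17.1% of all tested genes higher in BMDM and in BV2. The 1 was Flt3, a receptor of early blood cells, at 0.85 and 1.16 CPM in BV2 with 1 count in BMDM, and its call (adjusted p = 0.00837) was lost without BMDM replicate 1 (adjusted p = 0.0634) and kept without replicate 2 (adjusted p = 0.0253). Csf1r, the CSF1 receptor, was at 728 and 483 CPM in BV2 and at 3142 and 2800 CPM in BMDM, 4.9-fold higher in BMDM (log2 2.29 ± 0.63 SE, adjusted p = 0.0142), and passed neither without BV2 replicate 1 (adjusted p = 0.0507) nor without BV2 replicate 2 (adjusted p = 0.107). The interleukin 4 receptor chain Il4ra was at 57.1 and 37.3 CPM in BV2 and at 824 and 212 CPM in BMDM (11-fold, log2 3.46 ± 0.55 SE, adjusted p = 0.000811), and its log2 difference (BV2 minus BMDM) was -2.18 without BMDM replicate 1. Il10ra, which binds interleukin 10, was at 10.3 and 10.8 CPM in BV2 and at 128 and 95.3 CPM in BMDM (10.6-fold, log2 3.41 ± 0.49 SE, adjusted p = 0.000453). Both groups stood apart for these receptors, and BMDM of the first experiment held 222 and 196 CPM of Il4ra and 177 and 172 CPM of Il10ra. The granulocyte growth factor receptor Csf3r was at 7.93 and 6.18 CPM in BV2 and at 136 and 19.7 CPM in BMDM, and its call (adjusted p = 0.00703) was lost without BMDM replicate 1 (adjusted p = 0.0968) or BV2 replicate 2 (adjusted p = 0.0636). The growth factor itself, Csf1, was at 309 and 165 CPM in BV2 and at 465 and 615 CPM in BMDM with DMSO. In the first experiment BMDM held 7.24 and 9.92 CPM and BV2 112 and 138 CPM. With the first-experiment BMDM in the comparison Csf1 was higher in BV2 (log2 4.75, adjusted p = 8.29e-06). Its call in the other direction (adjusted p = 0.0181) was lost without BMDM replicate 2 (adjusted p = 0.0883) and without BV2 replicate 2 (adjusted p = 0.133).

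Few genes of cell division passed the test without a replicate block, and the BMDM libraries lay far apart in them. Mki67 was at 679 and 602 CPM in BV2, on either side of which the BMDM libraries fell, and did not pass (adjusted p = 0.878). In the mitosis list 1 of 26 members passed, Mybl2, a transcription factor of cycling cells, at 227 and 368 CPM in BV2 and at 11.1 and 42.1 CPM in BMDM (11.2-fold, log2 3.48 ± 0.71 SE, adjusted p = 0.00313). Of 32 DNA replication genes, 8 were higher in BV2 and none in BMDM, beside 17.1% and 27.1% of all tested genes. The 8 were led by Gins1 (31 and 48.6 CPM in BV2, 4.24 and 12.3 CPM in BMDM), Cdt1 (217 and 293 CPM against 33 and 111 CPM) and Mcm3 (275 and 448 CPM against 49.8 and 161 CPM), which are subunits or loaders of the replicative helicase. All 3 lost their calls without BV2 replicate 2 (adjusted p = 0.0622, 0.0528 and 0.201 for Gins1, Cdt1 and Mcm3). Gins1 and Mcm3 lost theirs without BMDM replicate 1 too (adjusted p = 0.0652 and 0.239), and Mcm3 without BV2 replicate 1 (adjusted p = 0.0617). The log2 difference of Cdt1 (1.82) was 1.19 without BMDM replicate 1 and 2.95 without BMDM replicate 2, and that of Mcm3 (1.78) was 2.86 without BMDM replicate 2. That count was 20 without BMDM replicate 2, the library with the higher sum of dividing-cell transcripts, 1 without BMDM replicate 1, 7 without BV2 replicate 1 and 1 without BV2 replicate 2. It was 0 with the BMDM of the first experiment in their place, where the fit also gave 1 mitosis gene higher in BV2. With the replicate number as a block, 5 mitosis and 20 replication genes were higher in BV2, and none in BMDM. With the block within each cell type these were 15 and 24, again with none higher in BMDM. That block takes the spread between replicates of a cell type out of the error, so its larger counts are no added support. With no block and no filter beyond 1 count, 14 mitosis and 21 replication genes were higher in BV2. Within the first experiment, where 31.2% of all tested genes were higher in BV2 and 31.9% in BMDM, 19 replication genes were higher in BV2 and 3 in BMDM, and 7 mitosis genes against 3.

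Among genes tied to the immortalising oncogenes, endogenous Myc was higher in BMDM. Myc (mm10 chr15:61985391-61990374, plus strand) was at 0.638 and 1.03 CPM in BV2 and at 66.8 and 72.1 CPM in BMDM, 81.9-fold higher in BMDM (log2 6.36 ± 0.53 SE, adjusted p = 1.83e-05). BV2 of the first experiment held 0.898 and 0.575 CPM and its BMDM 123 and 127 CPM. Transcripts of the viral oncogenes were not analysed here. A relative of Myc, Mycl, had no count in BV2 and was at 0.848 and 4.93 CPM in BMDM, at least 29.9-fold higher over the group (adjusted p = 0.00474). Some genes of ribosome and nucleotide synthesis, which Myc proteins are known to activate, were higher in BV2. They were the 3 largest higher in BV2 in a list of 37 tested members that was mixed in direction. The nucleolar proteins Ncl, at 1752 and 2637 CPM in BV2 and 426 and 482 CPM in BMDM (4.83-fold, log2 2.27 ± 0.36 SE, adjusted p = 0.000712), and Nop56, at 484 and 505 CPM against 84.2 and 106 CPM (5.2-fold, adjusted p = 0.00035), were among them. Cad, the first enzymes of pyrimidine synthesis, was at 494 and 705 CPM in BV2 and at 88.1 and 147 CPM in BMDM (5.1-fold, log2 2.35 ± 0.36 SE, adjusted p = 0.00067).

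The brakes of the cell cycle divided as well. Cdkn1a, which encodes the kinase inhibitor p21, was at 63.8 and 32.1 CPM in BV2 and at 279 and 368 CPM in BMDM (6.74-fold higher in BMDM, log2 2.75 ± 0.50 SE, adjusted p = 0.00171). Mdm2, a target and inhibitor of p53, was at 39.7 and 29.6 CPM in BV2 and at 188 and 256 CPM in BMDM (6.4-fold, adjusted p = 0.000137). Trp53 itself was at 192 and 227 CPM against 131 and 146 CPM (adjusted p = 0.137). Cdkn2a, the p16 and p19 locus, was at 68.9 and 81.9 CPM in BV2 and at 45.2 and 42.9 CPM in BMDM, 1.71-fold higher in BV2 (adjusted p = 0.0242), a call lost without BMDM replicate 1 (adjusted p = 0.0931), BMDM replicate 2 (adjusted p = 0.102) or BV2 replicate 2 (adjusted p = 0.12). Its neighbour Cdkn2b was at 1.49 and 0.902 CPM in BV2, at 38.3 and 25.1 CPM in BMDM (26.5-fold, adjusted p = 0.000457) and at 3.04 and 4.69 CPM in BMDM of the first experiment. Ccnd2, a D-type cyclin, was 6.44-fold higher in BMDM with DMSO (56.2 and 50.4 CPM against 313 and 374 CPM, adjusted p = 0.000198). First-experiment BMDM held 32.9 and 22.8 CPM, and with those BMDM it was higher in BV2 (log2 0.89, adjusted p = 0.0449). Over the list, 9 of 37 tested members were higher in BV2 and 12 higher in BMDM, shares near the 17.1% and 27.1% over all tested genes, and the 9 became 4 without BMDM replicate 1 or BV2 replicate 2.

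Sterol synthesis ran the other way from most lists. The pathway builds cholesterol from acetyl-CoA through mevalonate, squalene and lanosterol, and its genes are switched on together by SREBP2 (Srebf2) when membrane sterol is low. Sqle, which oxidises squalene, was at 443 and 315 CPM in BV2 and at 70.8 and 72.5 CPM in BMDM (5.29-fold, log2 2.40 ± 0.36 SE, adjusted p = 0.000526). The lanosterol demethylase Cyp51 was at 444 and 256 CPM in BV2 and at 74.5 and 64.7 CPM in BMDM (5.02-fold, log2 2.33 ± 0.47 SE, adjusted p = 0.00315). Both BV2 libraries lay above both BMDM libraries at these steps. Sc5d, a late desaturase, was at 234 and 131 CPM in BV2 and at 32.4 and 33.3 CPM in BMDM (5.55-fold, log2 2.47 ± 0.30 SE, adjusted p = 0.000145). Dhcr7, which reduces 7-dehydrocholesterol, was at 149 and 110 CPM against 21.6 and 30.4 CPM (4.98-fold, adjusted p = 0.00161). Insig1, the sterol-sensing anchor of SREBP in the endoplasmic reticulum, was at 353 and 238 CPM in BV2 and at 65.1 and 63.2 CPM in BMDM (4.61-fold, adjusted p = 0.000435). Of 22 members, all tested, 15 were higher in BV2 (17.1% of all tested genes were) and 2 higher in BMDM, with a median log2 difference of 1.59. The count was 12 or 13 when any 1 of the 4 libraries was left out. Hmgcs1, an early enzyme of the pathway, was at 87.7 and 99.7 CPM in BV2 and at 71.5 and 66 CPM in BMDM and was among the 5 that did not pass (adjusted p = 0.159). Serum differed between the media of the cell types, and its part in these levels was not tested.

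**Figure D5:**
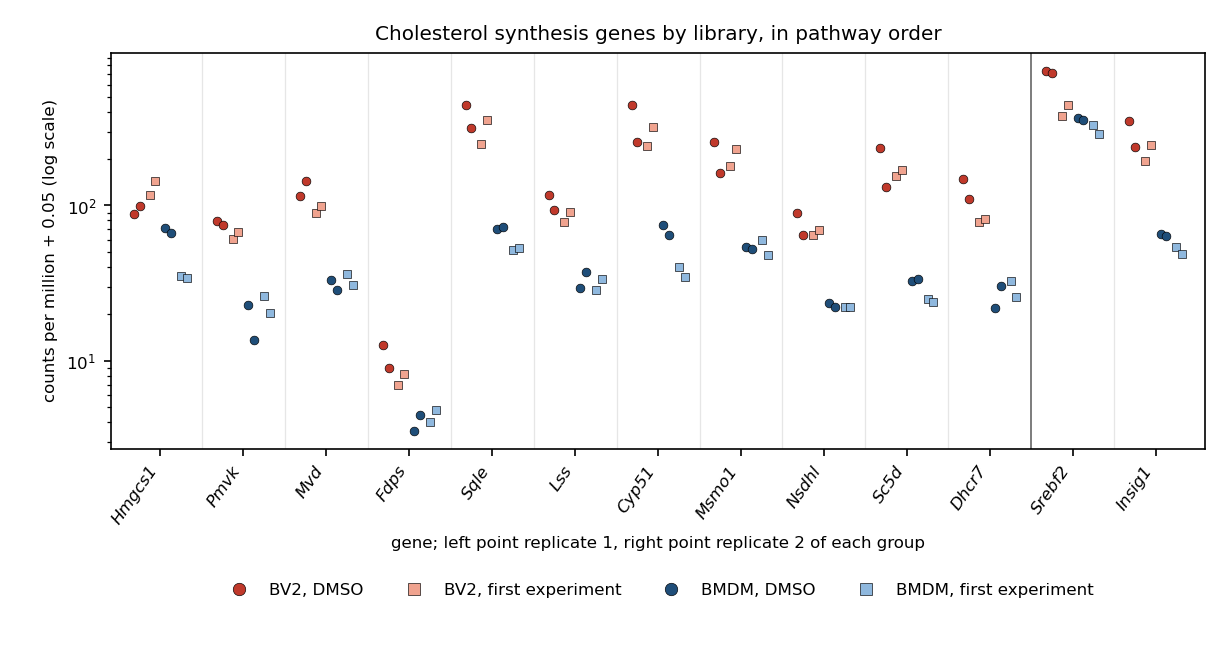
Levels (CPM plus 0.05, log axis) of 11 enzymes of cholesterol synthesis in pathway order and, right of the line, Srebf2 and Insig1, in each library of BV2 and BMDM with DMSO and of the same cells in the first experiment. Sqle, at 443 and 315 CPM in BV2 with DMSO against 70.8 and 72.5 CPM in BMDM with DMSO, and Cyp51 and Sc5d lie higher in BV2 with DMSO.

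Promoters of 2 of these genes are printed because the genes moved together and CCAAT, the box bound by the factor NF-Y, is a common partner of SREBP sites. As above, they are the 250 bases before the RefSeq start (GRCm38.p6, 5′ to 3′), with CCAAT or its reverse complement ATTGG in capitals. Both genes are on the minus strand, Cyp51 at chr5:4104698-4104947 and Sc5d at chr9:42264301-42264550.
Cyp51: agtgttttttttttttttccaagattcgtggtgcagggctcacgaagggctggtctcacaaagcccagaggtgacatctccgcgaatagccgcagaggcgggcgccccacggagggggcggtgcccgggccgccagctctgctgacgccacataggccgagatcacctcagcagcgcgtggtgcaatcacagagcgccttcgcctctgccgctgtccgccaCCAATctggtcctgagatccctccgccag
Sc5d: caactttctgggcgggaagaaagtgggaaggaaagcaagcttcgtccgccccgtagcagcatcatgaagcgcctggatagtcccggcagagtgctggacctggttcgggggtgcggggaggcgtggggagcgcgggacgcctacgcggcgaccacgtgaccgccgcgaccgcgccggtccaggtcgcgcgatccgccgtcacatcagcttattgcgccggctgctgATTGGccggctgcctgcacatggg
CCAAT was in 14 of 17 promoters of the sterol list (82.4%), from 14 of its 22 genes with an entry, against 37.4% of 32851 promoters. The sterol element core TCACNCCAC was in 1 of the 17 (5.88%) against 1.24% of all. Both searches of the sterol list were added after its levels were seen. For comparison, the mitosis list held CCAAT in 17 of 21 promoters (81%) and TTTGAA, part of the cell cycle homology region, in 15 of 21 (71.4%) against 17.9% of all. CACGTG, the Myc-binding E-box, was in 7 of 32 promoters of the Raf and Myc list (21.9%) against 7.15% of all.

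Lipid handling beyond synthesis was mixed, with 5 of 19 tested members higher in BV2 and 7 higher in BMDM, not far from the 17.1% and 27.1% over all tested genes. Abcg1, a sterol exporter, was at 268 and 126 CPM in BV2 and at 9.63 and 30.4 CPM in BMDM (9.81-fold higher in BV2, log2 3.29 ± 0.60 SE, adjusted p = 0.00166). Soat1, which esterifies cholesterol for storage, was at 939 and 448 CPM in BV2 and at 173 and 222 CPM in BMDM (3.51-fold, adjusted p = 0.00321). By contrast the lipid transfer protein Pltp was at 1.13 and 0.322 CPM in BV2 and at 704 and 200 CPM in BMDM (622-fold higher in BMDM, log2 9.28 ± 0.89 SE, adjusted p = 3.65e-05), with 340 CPM in each BMDM library of the first experiment. Plin2, the coat of lipid droplets, was at 66.6 and 57.9 CPM in BV2 and at 400 and 502 CPM in BMDM (7.24-fold, adjusted p = 3.41e-05). Apoe, the apolipoprotein that microglia and macrophages secrete, was at 1288 and 968 CPM in BV2 and at 3888 and 2040 CPM in BMDM and did not pass (adjusted p = 0.099).

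Complement genes were among the most divided. C1q starts the classical pathway and is made by macrophages and microglia from 3 neighbouring genes. C1qa was at 0.567 and 0.322 CPM in BV2 and at 1571 and 744 CPM in BMDM, 2573-fold higher in BMDM (log2 11.33 ± 1.99 SE, adjusted p = 0.0014). C1qb was at 3.4 and 1.87 CPM against 1920 and 1106 CPM (574-fold, log2 9.17 ± 1.47 SE, adjusted p = 0.000818). C1qc was at 2.34 and 1.87 CPM against 2060 and 1290 CPM (794-fold, log2 9.63 ± 1.64 SE, adjusted p = 0.00119). The C1q chains were thus at 3.4 CPM or less in the line, and BMDM of the first experiment held 787 to 2139 CPM of them. C5ar1, the receptor of the attractant C5a, was at 1.42 and 0.451 CPM in BV2 and at 483 and 477 CPM in BMDM (516-fold, adjusted p = 0.000795). C3, the central component, was at 39.4 and 67.3 CPM in BV2 and at 928 and 333 CPM in BMDM (11.8-fold, adjusted p = 0.000946), but at 145 and 118 CPM in BMDM of the first experiment. Over the list 14 of 17 tested members were higher in BMDM and 1 in BV2, beside 27.1% and 17.1% of all tested genes. The 1 was the chaperone Clu, at 110 and 95.9 CPM against 9.33 and 4.87 CPM (14.5-fold, log2 3.86 ± 0.34 SE, adjusted p = 2.41e-05). Of the 21 listed genes 6 were experiment-high. With the first-experiment BMDM in the comparison 10 of 18 tested members were higher in BMDM.

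Antigen presentation on class II molecules differed by gene. The chain H2-Ab1 had no count in BV2 and was at 29.8 and 17 CPM in BMDM (at least 227-fold, adjusted p = 0.000286). H2-Aa was likewise without a count in BV2 and at 3.31 and 7.64 CPM in BMDM (at least 55.5-fold, adjusted p = 0.00426). H2-Eb1, also without a count in BV2, was at 2.24 and 6.15 CPM (at least 42.7-fold, adjusted p = 0.00337). The chains that bind peptide were thus not detected in the line, and the activator of their genes, Ciita, rested on 3 counts in BV2 and was at 0.154 and 3.92 CPM in BMDM (adjusted p = 0.108). The invariant chain Cd74 did not follow them, at 195 and 149 CPM in BV2 and at 95.6 and 76.6 CPM in BMDM (adjusted p = 0.0546). H2-Oa, a chain of the loading inhibitor, was at 5.6 and 6.06 CPM in BV2, with no count and 0.676 CPM in BMDM (16.2-fold higher in BV2, adjusted p = 0.00827). Its counts in BMDM were all in replicate 2, and without that replicate no fold is given. The thiol reductase Ifi30 was at 325 and 272 CPM in BV2 and at 98 and 159 CPM in BMDM, and its call (adjusted p = 0.048) was lost without any 1 of the 4 libraries (adjusted p = 0.0519 to 0.247). The co-stimulatory ligands went opposite ways: Cd86 was at 37.9 and 28.5 CPM in BV2 and at 9.86 and 4.93 CPM in BMDM (4.49-fold higher in BV2, adjusted p = 0.00273). Cd80 was at 5.88 and 2.64 CPM against 14.7 and 18.8 CPM (3.94-fold higher in BMDM, adjusted p = 0.00451). Of 15 tested members 8 were higher in BMDM and 3 in BV2, and of 17 class I genes 2 and 1, beside 27.1% and 17.1% of all tested genes. Both class I counts are smaller shares than those. With the first-experiment BMDM in the comparison 7 class I genes were higher in BMDM and 2 in BV2. Within the first experiment 13 were higher in BMDM and 2 in BV2, beside 31.9% and 31.2% of all tested genes. In class I the non-classical chain H2-T23 was at 48.5 and 15 CPM in BV2 and at 309 and 113 CPM in BMDM (6.64-fold higher in BMDM, adjusted p = 0.00496). B2m, the light chain, was at 968 and 597 CPM in BV2 and at 1805 and 942 CPM in BMDM (adjusted p = 0.123). The calls of the proteasome subunit Psmb9 (15.4 and 17.4 CPM against 32.9 and 28.7 CPM, adjusted p = 0.0462) and of Nlrc5, the activator of class I genes (132 and 95 CPM against 78.1 and 56.2 CPM, adjusted p = 0.038), were each lost without BMDM replicate 2 (adjusted p = 0.0821 and 0.211) or BV2 replicate 1 (adjusted p = 0.186 and 0.194). That of Psmb9 was lost without either of the other libraries too.

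Genes induced by interferon were higher in BMDM for 28 of 39 tested members and in BV2 for none. Over all tested genes these shares were 27.1% and 17.1%. Ifih1, the RNA sensor MDA5, was at 3.97 and 2.64 CPM in BV2 and at 59 and 36.4 CPM in BMDM (14.4-fold, log2 3.85 ± 0.40 SE, adjusted p = 6.33e-05). Zbp1, a sensor of left-handed nucleic acids, was at 0.992 and 0.193 CPM in BV2 and at 98.9 and 13.7 CPM in BMDM (95-fold, log2 6.57 ± 1.04 SE, adjusted p = 0.000753). Ifi44l had no count in BV2 and was at 21.8 and 6.49 CPM in BMDM (at least 135-fold, adjusted p = 0.000712), though BMDM of the first experiment held 9.71 CPM and no count. Iigp1, a GTPase that attacks parasite vacuoles, rested on 1 count in BV2 and was at 9.02 and 1.55 CPM in BMDM, with 0.402 and 0.737 CPM in the first experiment. Replicate 1 was the higher of the pair in both cell types for Ifih1 and Zbp1. Irf7, the factor that amplifies the interferon response, was at 40.8 and 8.31 CPM in BV2 and at 544 and 50.5 CPM in BMDM, and its call (adjusted p = 0.0176) was lost without BMDM replicate 1 (adjusted p = 0.336) and without BV2 replicate 2 (adjusted p = 0.11). Stat2, part of the interferon-activated complex, was at 45.6 and 16.6 CPM in BV2 and at 255 and 128 CPM in BMDM (6.17-fold, adjusted p = 0.00136). Irf1 was at 20.3 and 21.1 CPM against 81 and 66.2 CPM (3.55-fold, adjusted p = 0.000598). The count of 28 was 19 without BMDM replicate 1 and 17 without BV2 replicate 2.

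Among chemoattractants and their receptors, 16 of 22 tested ligands and 11 of 16 tested receptors were higher in BMDM against 2 and 1 higher in BV2. Over all tested genes 27.1% were higher in BMDM and 17.1% in BV2. The median log2 differences of ligands and receptors were -6.74 and -7.08, or -5.92 and -5.29 with genes at the floor set to their bound. Cxcl16, a membrane-bound chemokine and scavenger receptor, was at 0.85 and 0.258 CPM in BV2 and at 516 and 316 CPM in BMDM (750-fold, log2 9.55 ± 0.90 SE, adjusted p = 3.34e-05). First-experiment BMDM held 403 and 385 CPM. The attractant Cxcl14 was at 1.28 and 1.16 CPM in BV2 and at 322 and 123 CPM in BMDM (182-fold, log2 7.51 ± 1.03 SE, adjusted p = 0.00032). First-experiment BMDM held 184 and 186 CPM. For these genes the first experiment's macrophages stood at levels like those with DMSO. Cxcl12, the attractant that marrow stroma makes for blood-forming cells, was at 0.425 and 0.322 CPM in BV2, at 531 and 107 CPM in BMDM and at 5.17 and 1.81 CPM in BMDM of the first experiment. The formyl peptide receptor Fpr1 rested on 1 count in BV2 and was at 204 and 14.5 CPM in BMDM (ratio 3050, counting interval 547 to 120518) but at 0.861 and 0.134 CPM in BMDM of the first experiment. In the other direction Ccl3, an inflammatory chemokine, was at 566 and 276 CPM in BV2 and at 30.9 and 16.8 CPM in BMDM (17.6-fold, log2 4.14 ± 1.37 SE, adjusted p = 0.0324), and missed the threshold without any 1 of the 4 libraries (adjusted p = 0.0553 to 0.139). Ccl24 (1.77 and 1.42 CPM in BV2, none and 0.27 CPM in BMDM) and the receptor Cxcr2 (0.779 and 0.451 CPM in BV2, no count in BMDM), both higher in BV2, also lost their calls without BMDM replicate 1 (adjusted p = 0.134 and 0.136), BV2 replicate 1 (0.0947 and 0.127) or BV2 replicate 2 (0.0763 and 0.0819). Cxcr2 lost its call without BMDM replicate 2 as well (adjusted p = 0.133). The platelet chemokine Ppbp (1 count in BV2, 48.9 and 1.42 CPM in BMDM) and the receptor Fpr2 (1 count, 64.7 and 4.12 CPM) were high in BMDM replicate 1 and lost their calls without BV2 replicate 2 (adjusted p = 0.0552 and 0.0558). The log2 difference (BV2 minus BMDM) of Ppbp was -5.06 without BMDM replicate 1. The 16 ligands became 8 without BMDM replicate 1, 7 without BV2 replicate 1 and 6 without BV2 replicate 2, and the 11 receptors became 7 without BV2 replicate 2. Of the 25 listed ligands 8 were experiment-high, and of the 19 receptors 4. With the first-experiment BMDM in the comparison 9 ligands and 9 receptors were higher in BMDM.

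Cytokines were higher in BMDM for 14 of 25 tested members and in BV2 for none, beside 27.1% and 17.1% of all tested genes. Of the 28 listed, 9 were experiment-high. Tgfb3 rested on 2 counts in BV2 and was at 205 and 217 CPM in BMDM, with 5.92 and 4.29 CPM in BMDM of the first experiment, and Tgfb2 rested on 2 counts against 76.8 and 40.9 CPM. The level in first-experiment BMDM was 0.345 and 0.536 CPM. Il1b was at 0.354 and 0.709 CPM in BV2, and its call (adjusted p = 0.0214) was lost without BMDM replicate 1, where the log2 difference was 2.81 in place of 8.60 (adjusted p = 0.322), and without BV2 replicate 1 (adjusted p = 0.12) or replicate 2 (adjusted p = 0.115). Il1a had no count in BV2 and was at 14.9 and 0.946 CPM in BMDM, with its call (adjusted p = 0.0372) lost without the same 3 libraries (adjusted p = 0.195, 0.125 and 0.138). The values of these members thus changed with the experiment or with 1 library. Tnf was at 16.1 and 7.73 CPM in BV2 and at 30.4 and 40.2 CPM in BMDM (adjusted p = 0.117). Over the list the 14 became 9 without BMDM replicate 1 and 6 without BV2 replicate 2. Among Toll-like receptors and their adaptors 7 of 23 tested members were higher in BMDM and none in BV2, close to the 27.1% over all genes. Tlr8, a sensor of single-stranded RNA, rested on 2 counts in BV2 and was at 77.7 and 77.1 CPM in BMDM (ratio 1147, counting interval 317 to 9475, adjusted p = 0.00324). Irak3, a brake on this signalling, was at 5.24 and 5.54 CPM against 264 and 36 CPM (27.8-fold, adjusted p = 0.00249), with a log2 difference (BV2 minus BMDM) of -2.75 without BMDM replicate 1 in place of -4.8. Tlr4, the lipopolysaccharide receptor, was at 37.8 and 19.3 CPM against 48.9 and 54.9 CPM (adjusted p = 0.0504).

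Receptors for debris and lipoproteins were higher in BMDM for 17 of 34 tested members and in BV2 for 4, beside 27.1% and 17.1% of all tested genes. Msr1, the class A scavenger receptor, was at 1.84 and 0.58 CPM in BV2 and at 774 and 437 CPM in BMDM (502-fold, log2 8.97 ± 1.39 SE, adjusted p = 0.000687). Axl, a receptor for dying cells, was at 3.54 and 0.644 CPM in BV2 and at 260 and 462 CPM in BMDM (174-fold, log2 7.44 ± 0.88 SE, adjusted p = 0.000133). Its bridging ligand Gas6 was at 1.35 and 1.16 CPM against 297 and 396 CPM (275-fold, log2 8.10 ± 1.00 SE, adjusted p = 0.000172). Axl and Gas6 were at 185 and 196 CPM and at 317 and 256 CPM in BMDM of the first experiment, so both partners of this recognition system were high in all 4 macrophage libraries. Higher in BV2 was Treml2, a receptor of the TREM family, at 33.9 and 14.4 CPM against 1.23 and 0.338 CPM (30.9-fold, log2 4.95 ± 0.89 SE, adjusted p = 0.00157). Scarb1, the receptor for high-density lipoprotein, was at 326 and 243 CPM against 78.7 and 114 CPM (2.96-fold, adjusted p = 0.00373). Tyro3, a relative of Axl, rested on 1 count in BV2 and was at 13.4 and 11.7 CPM in BMDM but at 0.287 and 0.067 CPM in BMDM of the first experiment. Colec12, a scavenger lectin, was at 422 and 234 CPM in BV2 and at 123 and 93.3 CPM in BMDM, and its call (adjusted p = 0.0144) was lost without BMDM replicate 2 (adjusted p = 0.0809) or BV2 replicate 1 (adjusted p = 0.0978). The 17 became 11 without BMDM replicate 1 and 9 without BV2 replicate 2.

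In nucleotide signalling, 8 of 17 tested members were higher in BMDM and 2 in BV2, beside 27.1% and 17.1% of all tested genes. Nt5e, the ectoenzyme CD73 that makes adenosine, had no count in BV2 and was at 10.6 and 7.5 CPM in BMDM (at least 88.2-fold, adjusted p = 0.00144). First-experiment BMDM held 1.09 and 0.804 CPM. P2ry6, a receptor that triggers engulfment in microglia, was at 11.3 and 11.8 CPM in BV2 and at 237 and 173 CPM in BMDM (17.8-fold, log2 4.15 ± 0.88 SE, adjusted p = 0.00394). P2rx1, an ATP-gated channel, went the other way, at 5.31 and 3.61 CPM in BV2 with 3 counts in BMDM, a ratio of 40.9 with a counting interval of 13.7 to 201 (adjusted p = 0.00223). P2ry1, a receptor for ADP, was at 69.6 and 60.5 CPM in BV2 and at 0.694 and 5.74 CPM in BMDM (19.9-fold higher in BV2, adjusted p = 0.00167), with a log2 difference of 6.53 without BMDM replicate 2 in place of 4.32. The channel P2rx5 rested on 1 count in BV2 against 0.925 and 1.96 CPM in BMDM (adjusted p = 0.00599). The 8 became 5 without BMDM replicate 1. In the lysosome list 8 of 34 members were higher in BMDM, 3 were higher in BV2 and 23 did not pass. Both counts are smaller shares than the 27.1% and 17.1% over all tested genes. With the first-experiment BMDM in the comparison 10 were higher in BMDM and 2 in BV2. Within the first experiment 20 were higher in BMDM and 4 in BV2, beside 31.9% and 31.2% of all tested genes. Of the 8, Acp5 and Ctsk, acid phosphatase and collagen-cutting protease of bone-resorbing cells, were 251-fold and 53.5-fold higher in BMDM, and both are experiment-high. Acp5 was at 0.354 and 0.322 CPM in BV2 and at 52.3 and 122 CPM in BMDM. Ctsk was at 0.921 and 0.773 CPM against 31 and 60.5 CPM. Ctsz, another cathepsin, was at 2808 and 2220 CPM in BV2 and at 1012 and 756 CPM in BMDM (2.85-fold higher in BV2, log2 1.51 ± 0.29 SE, adjusted p = 0.00255). The lysosomal hydrolase Gla was at 174 and 85.1 CPM in BV2 and at 57 and 66.9 CPM in BMDM, and its call (adjusted p = 0.0302) was lost without BMDM replicate 1 (adjusted p = 0.15), BMDM replicate 2 (adjusted p = 0.0712) or BV2 replicate 1 (adjusted p = 0.256). The 8 became 5 without BMDM replicate 1 or BV2 replicate 2.

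Arginine is split between nitric oxide and polyamine routes in macrophages, and the BMDM replicates lay far apart in the gene that opens the second route. Arg1 was at 0.213 and 0.193 CPM in BV2, and its difference from BMDM of 12.10 on the log2 scale (adjusted p = 0.00435) was 3.41 without BMDM replicate 1 (adjusted p = 0.00893). First-experiment BMDM held 0.23 and 1.41 CPM. Nos2, which makes nitric oxide, was at 0.638 and 0.258 CPM in BV2 and at 20 and 5.54 CPM in BMDM (28.3-fold, adjusted p = 0.00685), a call lost without BV2 replicate 2 (adjusted p = 0.0633). First-experiment BMDM held 0.287 and 0.402 CPM. Ass1, which recycles citrulline to arginine, had 4 counts and none in BV2 and was at 265 and 134 CPM in BMDM (1374-fold, log2 10.42 ± 0.93 SE, adjusted p = 2.58e-05). First-experiment BMDM held 37 and 50.2 CPM. The arginine importer Slc7a1 was at 896 and 444 CPM in BV2 and at 59.7 and 104 CPM in BMDM (8.18-fold higher in BV2, log2 3.03 ± 0.42 SE, adjusted p = 0.000321). Odc1, the first enzyme of polyamine synthesis, was at 281 and 401 CPM in BV2 and at 78.5 and 126 CPM in BMDM, and its call (adjusted p = 0.0129) was lost without BMDM replicate 1 (adjusted p = 0.0959) or BV2 replicate 2 (adjusted p = 0.0665). Arg2, the mitochondrial arginase, had no count in BV2 and was at 5.7 and 0.27 CPM in BMDM, with its call (adjusted p = 0.0166) lost without BMDM replicate 1 (adjusted p = 0.108), BV2 replicate 1 (adjusted p = 0.0681) or BV2 replicate 2 (adjusted p = 0.0772). Of 10 members 5 were higher in BMDM and 2 in BV2, beside 27.1% and 17.1% of all tested genes, and the 5 became 3 without BMDM replicate 1 or BV2 replicate 1 and 2 without BV2 replicate 2. Experiment-high genes made up 5 of the 10. With the first-experiment BMDM in the comparison 3 members were higher in BV2 and 2 in BMDM.

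Matrix proteases and their inhibitors were higher in BMDM for 14 of 16 tested members and in BV2 for none. Over all tested genes these shares were 27.1% and 17.1%. Of the 17 listed, however, 10 were experiment-high. The gelatinase Mmp2, also in the stromal list, rested on 3 counts in BV2 and was at 276 and 261 CPM in BMDM with 3.56 and 3.35 CPM in the first experiment. Mmp14, its membrane-bound activator, was at 0.567 and 0.258 CPM in BV2 and at 1051 and 451 CPM in BMDM (1804-fold, log2 10.82 ± 0.62 SE, adjusted p = 2.76e-06). First-experiment BMDM held 9.82 and 11.4 CPM. Mmp12, the elastase of macrophages, was not experiment-high, at 0.779 and 0.387 CPM in BV2 and at 18.4 and 140 CPM in BMDM (136-fold, log2 7.08 ± 1.02 SE, adjusted p = 0.000429). First-experiment BMDM held 13.4 and 31.5 CPM. Timp3, a protease inhibitor held in the matrix, was at 0.425 and 0.322 CPM in BV2, at 730 and 665 CPM in BMDM and at 2.99 and 2.28 CPM in the first experiment. Mmp2, Mmp14 and Timp3 were thus far higher in BMDM with DMSO than in BMDM of the first experiment. Serpinb2, an inhibitor of plasminogen activators, had no count in BV2 and was at 66.1 and 2.3 CPM in BMDM, and its call (adjusted p = 0.0137) was lost without BMDM replicate 1 (adjusted p = 0.0601), BV2 replicate 1 (adjusted p = 0.0624) or BV2 replicate 2 (adjusted p = 0.0697). With the first-experiment BMDM in the comparison 9 members were higher in BMDM, and without BV2 replicate 2 the 14 were also 9.

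Named by size alone, the genes most in excess in BV2 included several known from other tissues. Rhox5 (mm10 chrX:37804842-37808876, plus strand), a homeobox gene of testis that is often switched on in cell lines, was at 333 and 380 CPM in BV2 and at 0.0771 and 0.338 CPM in BMDM (1592-fold, log2 10.64 ± 0.43 SE, adjusted p = 9.1e-07). Nefh, the heavy neurofilament chain of axons, was at 161 and 260 CPM in BV2 with 3 counts in BMDM (ratio 1970, counting interval 674 to 9555, adjusted p = 3.36e-06). Abcc8, the sulfonylurea receptor of insulin-secreting cells, was at 205 and 123 CPM in BV2 and at 0.154 and 0.203 CPM in BMDM (867-fold, adjusted p = 1.45e-06). All 3 were high in BV2 of the first experiment as well (155 and 158 CPM of Nefh, 316 and 296 CPM of Rhox5, 90.1 and 112 CPM of Abcc8). The other 9 of the 12 largest were Nrsn2, Trim63, Spink5, Mcoln3, Tcam1, Celsr1, Atp13a4, Hspb7 and F7. The last encodes coagulation factor VII and was at 57.8 and 29.8 CPM against 0.231 and 0.135 CPM (231-fold, adjusted p = 2.11e-05). Hspb7, a small heat shock protein of heart and muscle, was at 245 and 359 CPM against 0.694 and 1.82 CPM (235-fold, log2 7.88 ± 0.57 SE, adjusted p = 8.36e-06). The calcium channel Mcoln3 was at 160 and 96 CPM against 0.308 and 0.27 CPM (430-fold, adjusted p = 1.69e-06). The 12 were picked for size and lack of overlap in these same 4 libraries, so leaving out 1 of them is no separate check.

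The 12 genes most in excess in BMDM, with stromal and experiment-high genes set aside, included 8 with no count in BV2. Among these was Il3ra, the interleukin 3 receptor chain, at 108 and 74.1 CPM in BMDM (at least 887-fold, adjusted p = 3.61e-06). Rnd3, an inhibitor of contractility, was at 94.2 and 50.6 CPM (at least 701-fold, adjusted p = 1.51e-05). Cul9, a ubiquitin ligase scaffold, was at 54.4 and 48.3 CPM (at least 506-fold). Aplp1, a relative of the amyloid precursor, was at 36.6 and 27.2 CPM (at least 312-fold). Both BMDM libraries held these genes and neither BV2 library with DMSO held a count. First-experiment BMDM held 123 and 119 CPM of Il3ra, 30.8 and 33.4 CPM of Rnd3 and 72.8 and 80.2 CPM of Cul9, while its BV2 had no count of Il3ra or Rnd3. The linker histone H1fx (at least 263-fold), the stress protein Sesn3 (at least 240-fold) and H2-Ab1 were also without a count in BV2. Those with counts in BV2 were C1qa, Iqgap2, Marveld1 and Tgfbi, a matrix protein that macrophages secrete, at 0.85 and 0.129 CPM in BV2 and 1917 and 967 CPM in BMDM (2956-fold, log2 11.53 ± 1.80 SE, adjusted p = 0.000706). These 12 too were picked for size and lack of overlap in the 4 libraries, so leaving out 1 library is no separate check of them. Of the genes set aside, the 8 largest were Dpysl3, Ltbp1, Fbln5, Ms4a4a, Adgrf5, Kalrn, Adamtsl4 and Cdh2, all without a count in BV2 and 18.4 to 84.8 times as high in BMDM with DMSO as in BMDM of the first experiment. Among them the elastic fibre protein Fbln5 was at 70.1 and 127 CPM and the N-cadherin gene Cdh2 at 56.6 and 70.7 CPM, against 1.09 and 1.54 CPM and 0.115 and 0.268 CPM in the first experiment.

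Marks of other blood and tissue cells were counted as lists. Of the 12 T and natural killer cell genes 6 had no count in any of the 4, and the list summed to 4.89 and 5.41 CPM in BV2 and 2.24 and 4.87 CPM in BMDM. The neutrophil list summed to 1.2 and 1.29 CPM in BV2 and to 35 and 15.4 CPM in BMDM, and the mast cell and basophil list to 0 in BV2 and 26.2 and 8.04 CPM in BMDM. Among the latter, the basophil protease Mcpt8 was at 23.3 and 3.51 CPM in BMDM with DMSO and at 0.172 and 0.067 CPM in BMDM of the first experiment. Genes of neurons and macroglia summed to 4.53 and 4.9 CPM in BV2 and to 189 and 241 CPM in BMDM. BMDM of the first experiment held 159 and 162 CPM of that list, so most of its sum was present there too. Its member Tubb3, a neuronal tubulin, departed from this, at 52.8 and 46.1 CPM in BMDM with DMSO but at 0.747 and 0.536 CPM in the first experiment. Endothelial and fat cell genes summed to 213 and 106 CPM in BV2 and 27.3 and 50.4 CPM in BMDM, with Fabp4 the sole member that passed. Osteoclast genes summed to 296 and 197 CPM in BV2 and 1402 and 532 CPM in BMDM. Dendritic cell genes summed to 222 and 138 CPM in BV2 and 409 and 156 CPM in BMDM. Of their 5 tested members, however, 3 were higher in BV2 and none in BMDM, beside 17.1% and 27.1% of all tested genes. The 3 included Batf3 and Flt3, described above. B and plasma cell genes summed to 96.4 and 165 CPM in BV2 and 44.2 and 25.5 CPM in BMDM. The red cell and megakaryocyte list summed to 29.3 and 20.5 CPM in BV2 and to 2081 and 66.8 CPM in BMDM, most of the first in the platelet chemokine Pf4, at 2078 and 65.5 CPM, whose log2 difference (BV2 minus BMDM) was -1.49 without BMDM replicate 1 (adjusted p = 0.196). The part of such cells in the results above was not tested.

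The same cell types were also compared in libraries outside this contrast. In hypoxia, below 0.1% oxygen with DMSO, 2328 genes were higher in BV2 (14.6% of tested genes) and 4090 higher in BMDM (25.6%). Untreated cells of the first experiment, where cell type and count table cannot be told apart, gave 5002 genes higher in BV2 (31.2% of 16035 tested) and 5115 higher in BMDM (31.9%). Of the 965 genes at least 4-fold higher in BV2 with DMSO in normoxia, 667 (69.1%) passed in the same direction and 3 in the other in hypoxia. In the first experiment 844 of the 947 tested (89.1%) did so and 1 was opposite. Of the 2742 genes at least 4-fold higher in BMDM, 1008 (36.8%) were at least 4-fold higher in BMDM with DMSO than in BMDM of the first experiment. Among those 1008, 712 were tested in the first experiment, 399 (56.0%) passed in the same direction and 45 in the other. Of the other 1734 genes 1400 were tested, 1257 (89.8%) passed in the same direction and 1 in the other. The split uses the same first-experiment macrophages, so part of that contrast is fixed by how it was made. The sterol list kept its direction in both, with 20 of 22 members higher in BV2 in hypoxia and 18 in the first experiment against 1 each higher in BMDM.

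The cell type difference itself changed with oxygen for 106 genes (0.664% of 15955) by the interaction term of the fit. Cd86, higher in BV2 in normoxia, was at 11.4 and 14.8 CPM in BV2 and at 66.9 and 39 CPM in BMDM in hypoxia. Its log2 difference (BV2 minus BMDM) was -2.02 there (interaction adjusted p = 0.0256). Mxd4, an antagonist of Myc, was at 28.1 and 28.3 CPM in BV2 and 137 and 139 CPM in BMDM in normoxia and at 186 and 216 CPM against 193 and 211 CPM in hypoxia, where the groups overlapped (-2.29 to -0.01, interaction adjusted p = 0.0491). The sterol enzymes Nsdhl (1.76 to 3.87, interaction adjusted p = 0.0467) and Pmvk (2.09 to 4.29, interaction adjusted p = 0.0491) grew further apart, with BMDM at 5.24 and 8.91 CPM and at 5.32 and 7.33 CPM in hypoxia. The difference in Nefh shrank from 10.81 to 6.38 (interaction adjusted p = 0.0491), with 75.6 and 130 CPM in BV2 and 1.57 and 0.79 CPM in BMDM in hypoxia.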

How the data were processed

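Gene counts of poly(A) RNA were used as deposited, in 3 count tables of 55487 genes, of which 55141 had a symbol. Per the submitters' processing notes the tools included Trimmomatic 0.36, STAR 2.6, SAMtools, HTSeq 0.9.1 and deepTools with genome mm10, and Picard 2.17.1 is named for the first BV2 table. The strand setting of the counting is not given in the sources used here. Column names were matched to the labels, and 0 columns were left unmapped.

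From the counts, edgeR 4.0.16 (R 4.3.3, limma 3.58.1) was run on the 12 libraries of the panobinostat table in 6 groups, with its expression filter, TMM scaling and the quasi-likelihood F test, and p-values were adjusted by Benjamini-Hochberg over all tested genes. A second call rule also required a 4-fold difference. The SE was taken from the fold change and its F statistic. The procedure was tested on simulated counts with a common spread for all genes and no replicate effect. That does not cover differences like those between the BMDM replicates. The first experiment was fitted separately, its BV2 and BMDM counts coming from different tables. Genes with no count in a group were set against a floor of 3 counts over the group, and those with 1 to 3 counts were given a ratio with an exact 95% interval.

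The members and the gene lists were chosen with earlier results of these data known. Genes were named by rule: the 12 largest differences in each direction (adjusted p under 0.05, average log2 CPM of at least 4, no overlap, no predicted-gene name), with stromal and experiment-high genes named apart (up to 8), the 3 largest that passed in each direction in each list described gene by gene, and defining genes. The other genes named were chosen after their values were seen, and some genes that the rule names are not reported here. Alternatives included DESeq2 1.42.0, other scaling and filters, a replicate block, fewer libraries and each library left out. GENCODE M21 gave coordinates, and RefSeq gave promoters.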

Additional observations from a re-analysis of the deposited data

Results flagged for a closer look

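The difference between BV2 and BMDM was not the same in hypoxia as in normoxia for 106 genes by the interaction term of the edgeR fit (adjusted p under 0.05), in 73 of them shifted toward BV2 in hypoxia and in 33 toward BMDM. Among the genes described above, the log2 difference (BV2 minus BMDM) was larger in hypoxia than in normoxia by 2.28 (SE 0.42) for Mxd4. It was larger by 2.2 (SE 0.41) for the sterol enzyme Pmvk and by 2.11 (SE 0.38) for the sterol enzyme Nsdhl. In the other direction the axon filament gene Nefh changed by -4.42 (SE 0.82) and the co-stimulatory ligand Cd86 by -4.19 (SE 0.6), the latter with opposite signs at the 2 oxygen levels.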

How the results depend on the processing

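Against 7054 genes called, other tests and scalings gave between 7060 (DESeq2 size factors in edgeR) and 7304 (no filter beyond 1 count), and the 4 libraries compared gave 5797 when fitted alone. Leaving out 1 of the 4 libraries gave 4795 to 5872 calls, of them 1460 to 2171 higher in BV2 and 2934 to 3733 higher in BMDM. A mean of at least 5 CPM left 10563 genes tested, 2516 higher in BV2, 2527 higher in BMDM and 496 and 1237 at least 4-fold higher in BV2 and in BMDM. Without the stromal and experiment-high genes 1821 were at least 4-fold higher in BMDM. Scaling without the 100 highest genes gave 3274 higher in BV2 and 3919 in BMDM. Same-number deviations of BV2 and BMDM with DMSO in normoxia correlated at 0.08. Over all pairs of groups from different cell types the range was -0.07 to 0.2. Within a cell type the correlation was 0.22 to 0.5 across the 3 BV2 groups and 0.34 to 0.68 across the 3 BMDM groups. With 2 numbers a group, this is a hint from the data, not from the design, that the numbers pair libraries within each cell type. With a replicate block 7577 genes were called in normoxia (8470 with the block within each cell type) and 6990 in hypoxia, and the interaction with oxygen was called for 363 genes in place of 106. The block within each cell type takes the spread between replicates out of the error of a cell type difference. Its larger count is therefore no added support.

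With BMDM of the first experiment in place of those with DMSO, the log2 difference (BV2 minus BMDM) changed sign for Ccnd2 (0.89), Csf1 (4.75), Tmem119 (1.42), Cd68 (-0.25), Mki67 (-0.77), Nos2 (0.32) and Ptprc (0.03). Ptprc also changed sign with scaling without the 100 highest genes (0.02), without BMDM replicate 1 (0.03) and without BV2 replicate 2 (0.18). Irf8 did so without BMDM replicate 1 (0.2) and without BV2 replicate 1 (0.1), and Mki67 without BMDM replicate 1 (-0.57). With each library left out in turn, the values ranged from -0.39 to 0.18 for Ptprc, -0.47 to 0.2 for Irf8 and -0.57 to 2.7 for Mki67, none of which passed in the comparison of all 4 libraries. The cause was not tested. Each group had 2 libraries, and below 3 counts a level could not be told from none.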
